A study of Mus musculus with 50 samples.

Results

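The comparison described here set 5 fetal livers from dams given GenX at 2 mg/kg/day against 5 fetal livers from dams given vehicle, 10 of the 50 arrays in the series. Members were taken by sample title. GenX is hexafluoropropylene oxide dimer acid (HFPO-DA), a short-chain fluorinated acid used in place of perfluorooctanoic acid (PFOA). Pregnant CD-1 mice, an outbred strain, were gavaged daily from embryonic day 1.5, and livers of dams and fetuses were taken on gestational day 17.5. The series also holds fetal groups given GenX at 10 mg/kg/day (4 arrays) and PFOA at 1 (5 arrays) and 5 mg/kg/day (6 arrays), and the 5 matching maternal groups. Fetal livers are labelled female, with 1 fetus per litter, so the fetuses of a group come from separate dams. The fetuses were reached through the dam, and no fetal group was dosed directly.

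Long-chain fatty acids are broken down in liver by β-oxidation in mitochondria and peroxisomes and by ω-oxidation in the endoplasmic reticulum. Many of the enzymes are encoded by target genes of PPARα, a nuclear receptor that fatty acids and perfluorinated acids can activate, and that binds DNA as a pair with the retinoid X receptor. In late gestation the liver is both a blood-forming organ and an immature metabolic organ, in which hepatocytes start to express adult enzymes shortly before and after birth.

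Each value is a log2 signal of a whole-transcript array, and a difference of 1 is a 2-fold change. A gene was called when the Benjamini-Hochberg adjusted p of the limma fit over all 30743 named genes was under 0.05. Background is each array's 95th percentile of its negative controls, which lay between 7.66 and 7.94 on these 10 arrays. A gene at or below it on all 5 arrays of a group has only a bound there, so its fold is given as "at least", from the brighter group's mean against the mean background level of the dimmer group's arrays. Means of 5 arrays are given with the SD, and differences with the standard error (SE) of the fit.

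The livers had markers of their labelled tissue at high level. Albumin (Alb) averaged 13.31 in controls and 13.29 in the GenX group, and α-fetoprotein (Afp), the plasma protein of fetal hepatocytes, averaged 12.98 and 12.93. Neither gene was called. Some arrays stand apart. Replicate 4 of the GenX group was the lowest of its 5 arrays for 313 of the 351 genes that fell and were above background on all arrays of a group. It also had the highest mean level of the erythroid list (9.24, against 8.78 to 8.97 on the other 4) and the lowest of the mature hepatocyte list (6.95, against 7.25 to 7.50). Control replicate 3 and GenX replicate 2 were low in Xist (5.39 and 4.50, against 10.62 to 11.25 on the other 8 arrays) and high in the Y-linked Eif2s3y (6.49 and 6.10, against 3.65 to 3.77), against their label as females. The source name of GenX replicate 5 gives the 10 mg/kg/day dose, while its title gives 2 mg/kg/day. Outside this comparison, replicate 6 of the PFOA 5 mg/kg/day group has a source name that places it with GenX at 2 mg/kg/day.

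At 2 mg/kg/day, fetal livers carried higher transcripts of most listed genes of ω-oxidation and of peroxisomal and mitochondrial β-oxidation, with rises of more than 10-fold in Cyp4a14, Acot2 and Ehhadh. They carried lower transcripts of some genes of bile acid synthesis, acute phase proteins and amino acid breakdown, and of Cyp2e1 and Pon1. In all, 2070 genes were called (6.73% of those tested), 1200 higher (3.9%) and 870 lower (2.83%). Among the 5035 genes above background on all arrays of a group, 21.9% were called, 14.9% higher and 6.97% lower. The median change was -0.03 over all genes and 0.10 over these brighter genes. Most changes were small. The median size among called genes was 0.37, and 114 genes rose and 60 fell by 2-fold or more, with 32 and 6 past 4-fold. The arrays of the 2 groups did not overlap for 1994 genes (6.49%), of which 1435 were called. The 12 largest rises and 12 largest falls named below were chosen among called genes without overlap. Where their groups are described as separate, that is by selection.

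The count depended on the arrays and on the size of change required. It was 1310 without GenX replicate 4, 1159 with only the 2 groups in the fit and 88 with a 1.5-fold minimum. With source names followed, GenX replicate 5 left the group, the disputed PFOA replicate 6 joined it, and the count was 1260. It was 1693 without GenX replicate 5 and 1602 without both arrays of disputed group. With arrays centred on their medians, 73.5% of the calls were higher, against 58.0% as reported.

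**Figure D1:**
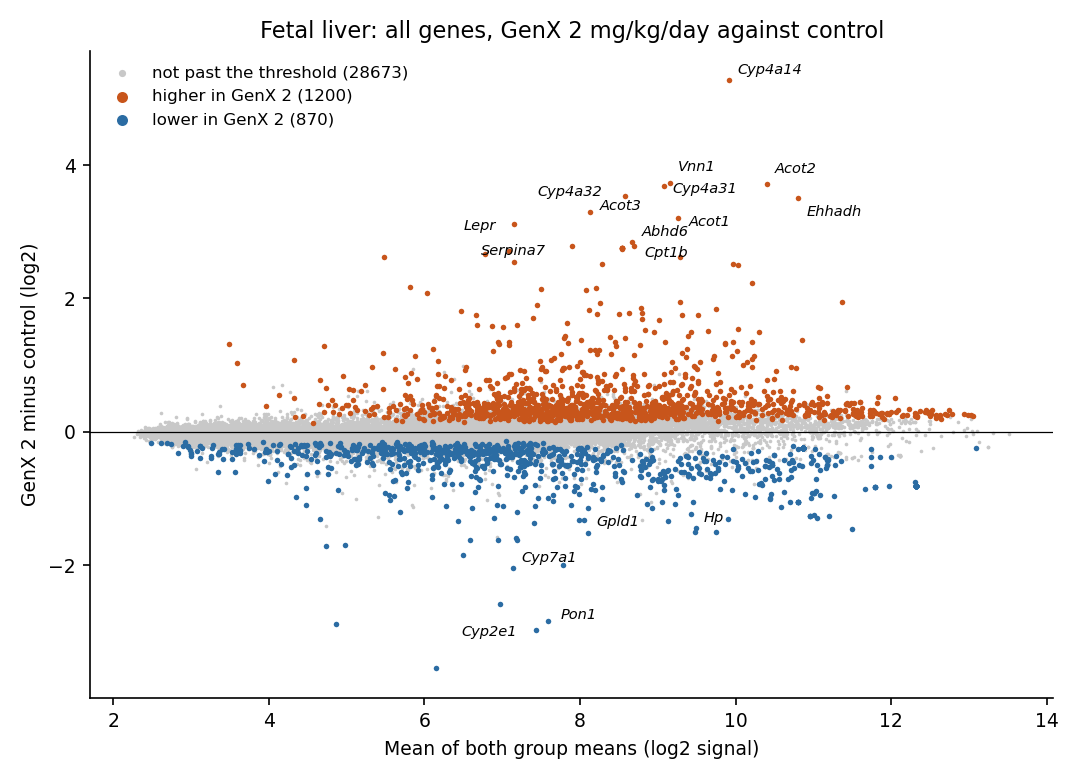
Change of each of the 30743 named genes in fetal liver, GenX 2 mg/kg/day minus control (log2, vertical), against the mean of both group means (log2 signal, horizontal). Orange points are the 1200 genes called higher and blue points the 870 called lower, and the largest rises (Cyp4a14, 5.27) reach further from 0 than the largest falls among the labelled genes (Cyp2e1, -2.96).

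The ω-oxidation genes held the largest rise. Cyp4a14, a cytochrome P450 that hydroxylates the terminal carbon of fatty acids, lies at chr4:115486200-115496158 (GRCm38.p6). Its signal was 5.76, 6.95, 7.13, 9.19 and 7.39 on the 5 control arrays and 12.54, 12.52, 12.66, 12.37 and 12.69 on the 5 GenX arrays. The groups were far apart, and the controls were spread over more than 3 log2 units, with replicate 4 as the one control array above background. The difference was 5.27 ± 0.33 (SE, adjusted p = 8.3e-11). Its neighbours on chromosome 4 moved with it: Cyp4a31 rose by 3.68 ± 0.29 and Cyp4a32 by 3.53 ± 0.31, the latter at least 5.44-fold. Cyp4a12a, a related ω-hydroxylase, rose from 9.10 ± 0.75 to 11.33 ± 0.40 (SD, n = 5 each). Aldh3a2, which oxidises the fatty aldehydes made downstream, rose 2.83-fold. Of 15 measured genes of the ω-oxidation list, 8 were called higher and 0 lower, with a median change of 0.41. The Cyp4a copies resemble each other closely, so signal may be shared between their probe sets. Cyp4a10 was not analysed here.

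Of 35 measured genes of peroxisomal β-oxidation, 23 were called higher and 0 lower, and the median change was 0.70. Ehhadh, the bifunctional enzyme of the classical peroxisomal pathway, measured 8.59, 9.07, 9.37, 9.47 and 8.72 in controls. It measured 12.54, 12.50, 12.60, 12.49 and 12.65 in the GenX group. The 5 treated livers lay close together and 3 units above the highest control. The difference was 3.51 ± 0.13, an 11.4-fold change with an adjusted p of 2.8e-15. Among the thiolases that close each cycle, Acaa1b rose by 2.62 ± 0.18 and Acaa1a by 1.29. Hsd17b4, the second bifunctional enzyme, rose by 1.34 ± 0.09. Abcd3, which carries fatty acids into peroxisomes, rose by 1.84, and Pex11a, which drives peroxisome division, rose by 2.14 from a level below background in every control. Catalase (Cat), which removes the hydrogen peroxide made by the pathway, rose by 0.33. Acox2 and Acox3, oxidases of branched-chain substrates, differed by 0.05 and -0.12 and were not called.

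Acyl-CoA thioesterases release free fatty acids from coenzyme A. They had no list of their own and were counted as a family after their values were seen: of 13 measured Acot genes, 6 were called higher and 0 lower, with a median change of 0.37. Acot2, the mitochondrial form, was 8.40, 8.51, 8.53, 8.73 and 8.52 in controls and 12.13, 12.06, 12.12, 12.40 and 12.56 after GenX. It rose 13.2-fold, and it was above background in all controls too. Acot1, the cytosolic form, rose by 3.21 ± 0.14. Acot3, a peroxisomal form, rose by 3.29 ± 0.18 from below background, at least 3.67-fold. Acot2, Acot1, Acot4 and Acot3 lie side by side on chromosome 12, between 83987861 and 84060400 (GRCm38.p6), and all 4 were called. Their sequences are alike, so these values may share signal.

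Of 24 measured genes of mitochondrial β-oxidation, 18 were called higher and 0 lower, with a median change of 0.97. The carnitine shuttle, which brings long-chain fatty acids into mitochondria, was changed at each step. Cpt1a, the outer membrane enzyme of liver, rose by 0.97 ± 0.16. Cpt1b, the form known from muscle, was 7.36, 7.07, 7.34, 7.56 and 7.19 in controls, below background on all 5. It was 10.11, 10.07, 9.91, 9.75 and 10.58 in the GenX group, at least 4.57-fold higher with an adjusted p of 3.2e-10. No GenX array came near the controls. Slc25a20, the carnitine carrier, rose by 1.94 ± 0.11, and Cpt2, the inner membrane enzyme, by 1.75 ± 0.10. Eci1, which moves double bonds into place for oxidation, rose 3.38-fold. Acadvl, Acadl, Acadm and Acads, the dehydrogenases for very long to short chains, rose by 1.22, 0.98, 0.52 and 0.40, in that order of chain length.

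Ketone body genes moved less. Bdh1, which makes β-hydroxybutyrate, rose 1.52-fold and Acat1 rose 1.46-fold, and the other 5 of 7 measured genes were not called.

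**Figure D2:**
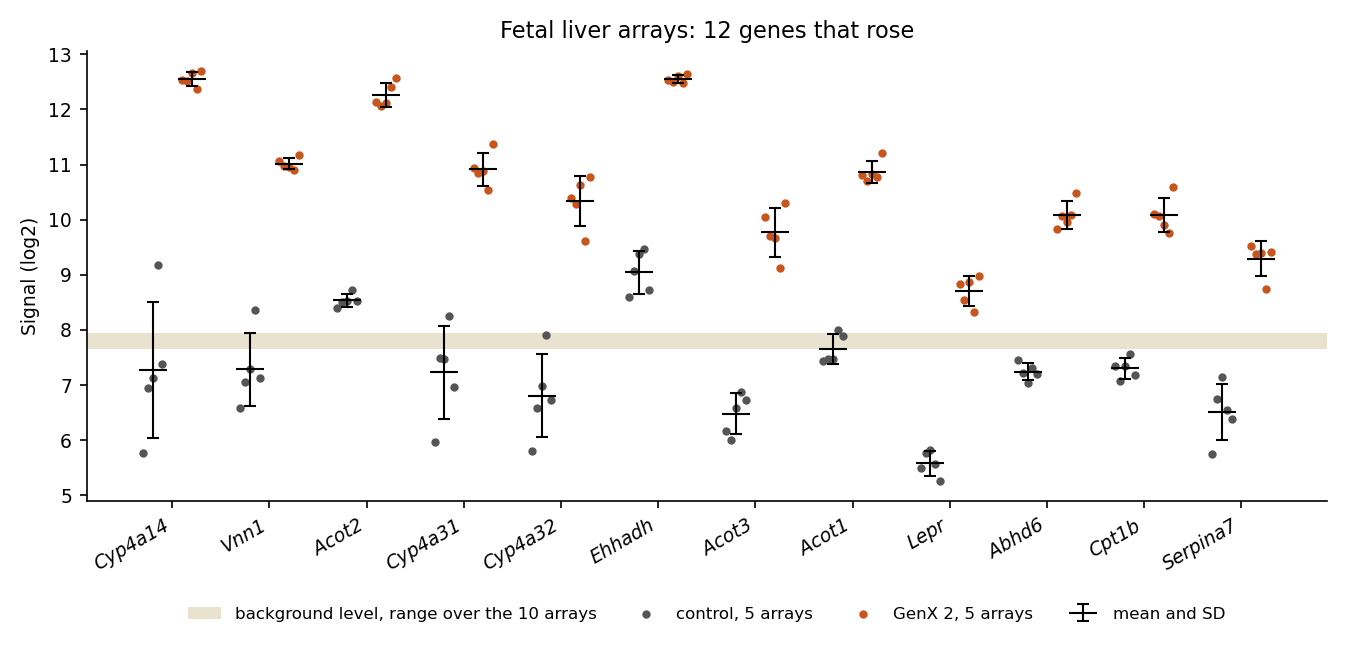
Signal (log2, vertical) on each of the 5 control arrays (grey) and 5 GenX 2 arrays (orange) for 12 genes that rose, with the mean and SD of each group as bars. The genes were chosen among those whose groups do not overlap, so all GenX arrays lie above all control arrays by selection. The tan band marks background, from 7.66 to 7.94 over the 10 arrays.

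Genes of fatty acid uptake, binding and storage were called higher in 16 of 39 measured cases and lower in 1. Fabp1, the abundant fatty acid binding protein of liver, was 9.82, 10.22, 10.24, 10.85 and 10.88 in controls and 12.39, 12.31, 12.43, 12.24 and 12.34 in the GenX group. The treated livers were tightly grouped and the controls were not. The rise was 3.84-fold (1.94 ± 0.15). Plin2, a coat protein of lipid droplets, rose by 1.54 ± 0.13 and Angptl4, a secreted inhibitor of lipoprotein lipase, by 1.83 ± 0.17, the latter at least 2.20-fold from below background. Vnn1, a pantetheinase on the cell surface, was 6.58, 7.06, 7.30, 8.36 and 7.12 in controls. It was 11.07, 10.98, 10.95, 10.91 and 11.17 after GenX, a rise of 3.73 ± 0.23. Cd36, a fatty acid receptor, rose by 0.63 ± 0.16. Slc27a5, which activates bile acids and fatty acids with coenzyme A, was called lower (-0.91), below background on all 10 arrays.

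PPARα and its partners were not called. Ppara was 8.24, 8.43, 8.73, 8.40 and 8.12 in controls and 8.50, 8.37, 8.18, 8.0 and 8.60 in the GenX group. The groups lay on top of each other, with a difference of -0.05 ± 0.13. None of the 20 measured receptors, coactivators and partner factors passed the threshold in the limma fit, and the median of this list was -0.03. Lpin1, a coactivator and phosphatidate phosphatase, differed most by p (-0.92 ± 0.37, adjusted p = 0.16). Fgf21, a hormone gene known as a PPARα target in adult liver, differed by 0.13 ± 0.30, and was below background on all 10 arrays.

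The DR1 element, AGGTCA repeated in the same direction with any 1 base between the copies, is the form of DNA that PPARα and its partner bind. It was searched on both strands in the 250 bases before the start of measured genes with a promoter in RefSeq (GRCm38.p6). Up to 2 of the 12 fixed letters were allowed to differ. The search did not cover every chromosome, so some measured genes are missing from the counts below. The promoters below are of called genes of the fatty acid lists and show the match nearest to where transcription starts. Capitals mark the 13 bases matched, written on the gene's own strand.
Fabp1 (chr6:71199792-71199844): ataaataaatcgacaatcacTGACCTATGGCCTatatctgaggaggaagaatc
Acot12 (chr13:91741391-91741443): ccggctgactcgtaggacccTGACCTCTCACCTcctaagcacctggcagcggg
Acot4 (chr12:84038346-84038378): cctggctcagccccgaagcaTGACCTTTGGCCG
Cd36 (chr5:17835927-17835979): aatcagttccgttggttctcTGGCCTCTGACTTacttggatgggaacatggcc
Plin2 (chr4:86670252-86670304): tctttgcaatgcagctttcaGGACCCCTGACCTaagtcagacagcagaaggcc
The Fabp1 and Acot12 matches differed from the element at 1 letter and began 67 and 110 bases before the start. Those of Acot4, Cd36 and Plin2 differed at 2 letters. A match was present in 643 of 18202 promoters (3.53%), in 46 of 785 called higher (5.86%) and in 13 of 315 called lower (4.13%). By list, 3 of 27 peroxisomal, 2 of 20 mitochondrial and 3 of 32 uptake and droplet promoters held one. The 2 mitochondrial matches lay in genes that were not called. Cat, a called peroxisomal gene, held a match that differed at 2 letters and is not shown above. Lists with no gene called higher held matches too: 3 of 20 acute phase promoters, 3 of 14 of the gut epithelium and 2 of 19 of the receptors and their partners. None of the 16 promoters found for the 24 genes of the largest changes held a match, which says only that these letters are not in that window.

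In the synthesis of fatty acids and cholesterol the genes called were all higher. Of 28 genes of fatty acid and triglyceride synthesis, 11 were called higher and 0 lower, with a median change of 0.29. Me1, the malic enzyme that supplies NADPH, rose by 1.93 ± 0.21, at least 2.51-fold from below background. Scd1, the stearoyl-CoA desaturase, rose 2.07-fold, Acaca, the committed step of the pathway, 1.57-fold, and Elovl2, an elongase of polyunsaturated fatty acids, 1.97-fold. Of 19 cholesterol genes, 8 were called higher and 0 lower, among them Lss (0.75), Hsd17b7 (0.77), Nsdhl (0.62) and Srebf2 (0.42), the last the transcription factor of the pathway. Mttp, which loads lipid onto apolipoprotein B, rose 2.06-fold, while Apof, a lipid transfer inhibitor protein, fell by 0.71. The apolipoprotein list as a whole had 4 genes higher and 4 lower of 22, and 2 lower without control replicate 1, control replicate 3 or GenX replicate 4.

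Of 39 subunits of the respiratory chain, 16 were called higher, 0 lower and 23 were not called, with a median change of 0.24. Cycs, cytochrome c, rose 1.63-fold and Ndufa10, of complex I, and Atp5o, of the ATP synthase, rose 1.30- and 1.22-fold. With a 1.5-fold minimum, 12 peroxisomal, 12 mitochondrial, 6 ω-oxidation and 7 uptake and droplet genes stayed called higher, against 1 gene of fatty acid synthesis and 0 of cholesterol synthesis and of the respiratory chain.

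**Figure D3:**
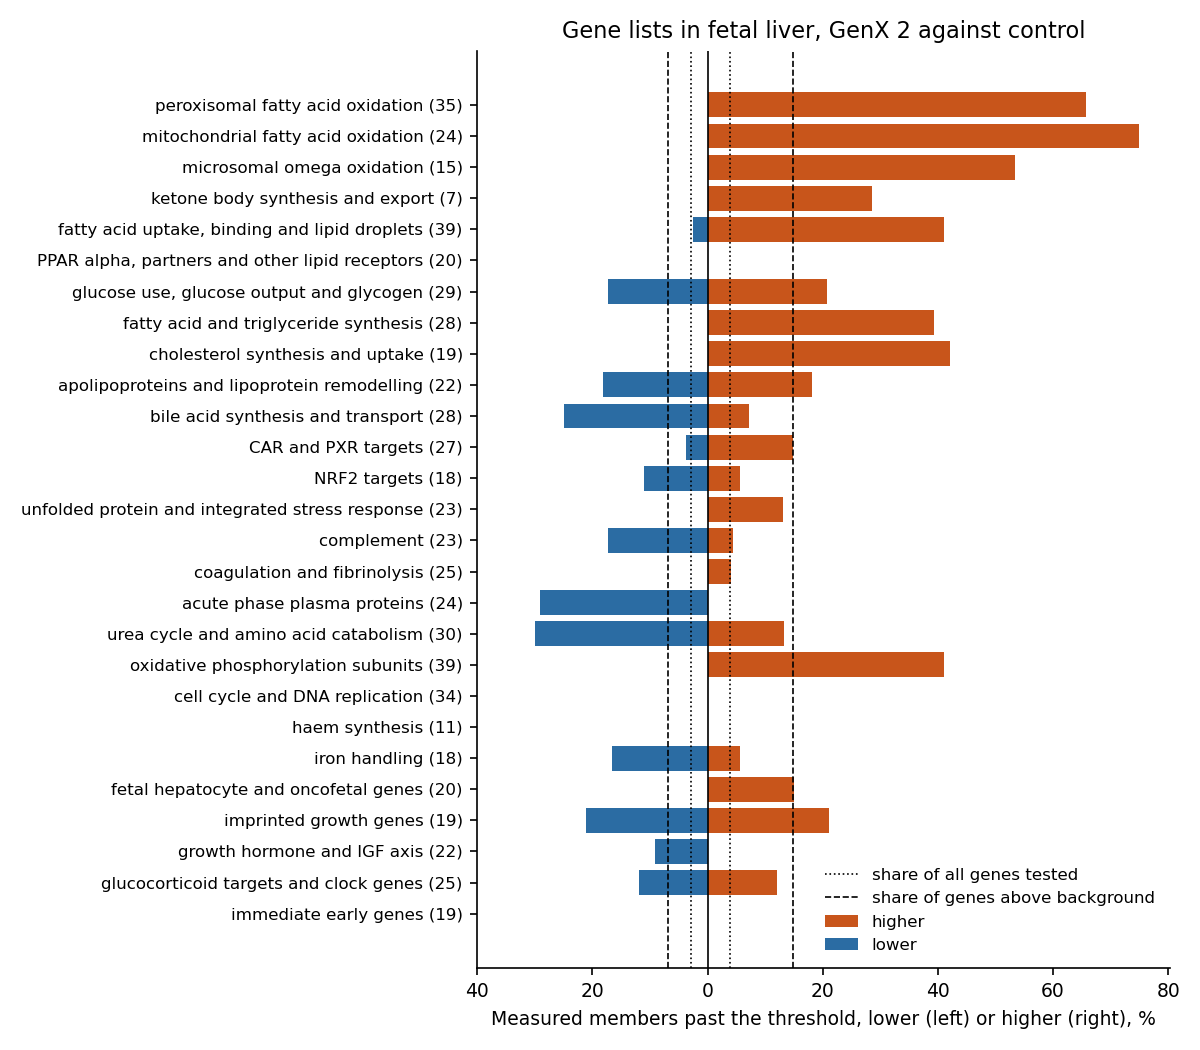
Share of each pathway list's measured genes (number in brackets) called higher (orange, right) or lower (blue, left), in %. Dotted lines mark the share over all genes tested (3.9% higher, 2.83% lower) and dashed lines that over genes above background (14.9% and 6.97%). The 3 fatty acid oxidation lists reach furthest right and have no gene called lower.

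Glucose genes moved both ways, with 6 of 29 called higher and 5 lower. Among all genes above background, 14.9% were called higher and 6.97% lower. Pdk4, the kinase that shuts off pyruvate dehydrogenase, was 8.64, 8.75, 9.03, 8.84 and 8.29 in controls and 11.16, 11.18, 11.20, 11.06 and 11.52 after GenX. It rose 5.71-fold with no overlap between the groups. G6pc, the catalytic subunit that releases glucose, was 5.99, 5.81, 7.27, 8.20 and 7.79 in controls and 9.19, 9.27, 9.61, 7.95 and 9.66 in the GenX group. Its groups overlapped, since GenX replicate 4 lay below control replicate 4, and the rise was 2.13 ± 0.49 (adjusted p = 0.0082). Aqp3 and Aqp7, channels for glycerol, rose by 1.76 and 0.80, the former at least 2.30-fold and the latter from below background to a mean of 7.44, which gives no bound. Slc37a4, which moves glucose 6-phosphate into the endoplasmic reticulum, fell by 0.71. Without GenX replicate 4, 2 glucose genes were called lower, and 3 without control replicate 1, 2 or 3 or GenX replicate 3.

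Other rises lay outside lipid oxidation. Lepr, the leptin receptor, was 5.50, 5.77, 5.82, 5.56 and 5.26 in controls and 8.83, 8.54, 8.87, 8.32 and 8.98 in the GenX group. All controls were far below background and all treated livers above it, a rise of 3.12 ± 0.24 and at least 1.76-fold. Abhd6, a monoacylglycerol lipase, rose by 2.84 ± 0.15, at least 4.57-fold. Serpina7, the thyroxine-binding globulin of plasma, rose by 2.78 ± 0.25, at least 2.64-fold. Aldh1a1 and Aldh1a7, aldehyde dehydrogenases that resemble each other, rose by 1.58 and 2.54, both from below background, the latter at least 1.44-fold.

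Lists of targets of other regulators followed. Of 27 genes induced by CAR and PXR in adult liver, 4 were called higher and 1 lower, where 3.9% and 2.83% of all genes were. Among genes above background, 14.9% were called higher and 6.97% lower. Without control replicate 1, 2 or 5 or GenX replicate 4, 2 were called higher, and without control replicate 3 or GenX replicate 4, 0 were called lower. Cyp2b10 and Cyp3a11, their usual markers, differed by 0.00 ± 0.12 and -0.37 ± 0.28, and Cyp2b10 was below background on all 10 arrays. Of 18 NRF2 targets, 1 was higher and 2 lower. The higher one was Ephx1, the microsomal epoxide hydrolase, which rose 3.63-fold (1.86 ± 0.20). The lower ones, Ugdh (-0.40) and Gsta2 (-0.34), both lost their calls without GenX replicate 4, and 1 of them did without any 1 of 6 other arrays. In the list of the unfolded protein and integrated stress responses, 3 of 23 were called higher, led by Creb3l3 at 0.87 ± 0.12, a liver factor that controls lipid genes. Dnajb9 and Shmt2, the other 2, lost their calls without any 1 of 6 and of 8 arrays.

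Among the falls, a pair of genes of the adult hepatocyte stood out. Cyp2e1, the ethanol-inducible cytochrome P450 at chr7:140763819-140774990 (GRCm38.p6), was 8.95, 8.50, 8.89, 9.14 and 9.12 in controls. After GenX it was 6.24, 6.29, 6.00, 5.47 and 5.78. Every control was above background and no treated liver was, so the fall was at least 2.23-fold, with a fitted difference of -2.96 ± 0.26 (adjusted p = 2.4e-08). Pon1, the paraoxonase carried on high-density lipoprotein, at chr6:5168090-5193987, showed the same separation. It was 8.60, 9.50, 9.49, 8.49 and 8.97 in controls and 6.27, 6.17, 6.41, 5.86 and 6.15 after GenX. Its difference was -2.84 ± 0.25, at least 2.37-fold. Without GenX replicate 4 the differences were -2.84 for Cyp2e1 and -2.76 for Pon1, and both stayed called. With a 1.5-fold minimum these 2, Cyp7a1 and Sult1a1 kept their calls among the 12 falls plotted. By list, that minimum left 3 bile acid genes called lower, and 0 acute phase and 0 amino acid genes.

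Bile acid synthesis fell at several steps. Cyp7a1, the rate-limiting enzyme, was 7.92, 8.05, 8.78, 8.04 and 8.03 in controls and 6.36, 5.64, 6.79, 5.60 and 6.18 in the GenX group. The groups were separate, and all treated livers were below background (-2.05 ± 0.31, at least 1.32-fold). Cyp8b1, which directs synthesis to cholic acid, fell by 1.32 ± 0.27 and Cyp27a1, which opens the alternative route, by 1.00 ± 0.15, at least 1.14-fold. Akr1d1, a reductase of the same pathway, fell by 1.63 ± 0.23, at least 1.18-fold. Of 28 genes of the bile acid list, 7 were called lower and 2 higher, and without GenX replicate 4, 6 were called lower. The 2 that rose were Klb, the co-receptor for FGF15 and FGF21 signals (0.61), and the drug pump Abcb1a (0.47), the latter below background on all 10 arrays.

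Plasma protein genes fell in part. Of 24 acute phase genes, 7 were called lower and 0 higher, and of 23 complement genes 4 were lower and 1 higher. With 1 array left out, 5 to 8 acute phase genes were called lower, and 4 with only the 2 groups in the fit. Hp, haptoglobin, which binds free haemoglobin, was 9.86, 9.65, 10.32, 10.80 and 10.38 in controls and 8.90, 8.85, 9.22, 8.06 and 8.79 after GenX. It fell by 1.44 ± 0.28. Hpx, the haem-binding hemopexin, fell by 0.71 and Cp, ceruloplasmin, by 0.61. Il6ra, the receptor subunit through which interleukin 6 drives the acute phase, fell by 0.82 ± 0.10, at least 1.28-fold. In the lectin branch of complement Mbl2 fell by 1.63 ± 0.14, from a mean of 7.75 to below background on all GenX arrays, while Mbl1 rose by 0.60 ± 0.14. C4b fell by 1.09 ± 0.28, but its call was lost without GenX replicate 4 (-0.86, adjusted p = 0.070) or control replicate 5 (-1.01, adjusted p = 0.051). Coagulation genes were called in 1 of 25 cases, Serpinf2, the inhibitor of plasmin, at 0.33, and that call was lost when control replicate 4 or GenX replicate 5 was left out. Albumin was among the plasma proteins that were not called.

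Amino acid breakdown fell in 9 of 30 measured genes and rose in 4. Cps1, the first enzyme of the urea cycle, fell by 1.26. Hpd, of tyrosine breakdown, fell by 1.15 ± 0.23 and Hal, of histidine breakdown, by 1.11 ± 0.19, at least 1.17-fold. In the methionine path Mat1a fell by 0.80, Gnmt by 1.06 ± 0.18 and Cth by 1.05 ± 0.20, whereas Bhmt rose by 0.66. Cth was 9.64, 9.96, 10.26, 10.13 and 9.90 in controls and 9.13, 9.04, 9.34, 7.98 and 9.15 after GenX. Replicate 4 was more than 1 unit below the other treated livers, and without it the fall was 0.81 and stayed called. Without that array 8 genes of the list were called lower. Slc3a1, a subunit of the cystine transporter, fell by 1.32 ± 0.21, Sult1a1, a phenol sulfotransferase, by 1.34 ± 0.12, and Gpld1, a phospholipase that cuts glycosylphosphatidylinositol anchors, by 1.51 ± 0.24.

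**Figure D4:**
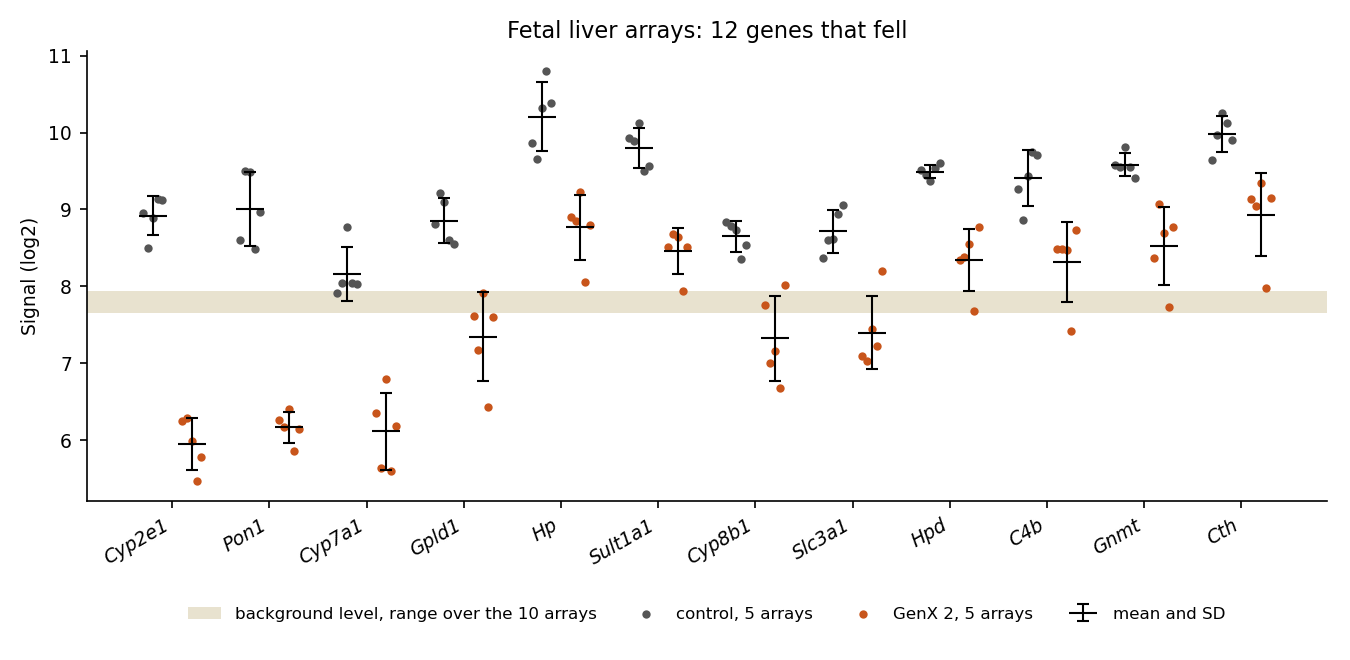
Signal (log2, vertical) on each of the 5 control arrays (grey) and 5 GenX 2 arrays (orange) for 12 genes that fell, with the mean and SD of each group as bars. The genes were chosen among those whose groups do not overlap, so all GenX arrays lie below all control arrays by selection. Cyp2e1, Pon1 and Cyp7a1 lie below the tan background band (7.66 to 7.94) on all 5 GenX arrays.

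The list of mature hepatocyte markers had 5 of 16 genes called lower and 1 higher, with a median of -0.36, and 3 were called lower without GenX replicate 1 or 4. Its mean level ran from 7.53 to 7.92 in controls and from 6.95 to 7.50 in the GenX group, with 5 and 8 members below background on all arrays of the group. Fewer cells of a type and less RNA per cell cannot be told apart in whole liver, and the part of cell makeup in these results was not tested. Of the fetal hepatocyte genes, 3 of 20 were called, all higher: Krt18, a keratin, at 0.88 ± 0.09, Sall4 at 0.55 and Krt8 at 0.38. The call of Krt8 was lost without any 1 of 7 arrays. Among all genes above background, 14.9% were called higher.

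Blood cells make up much of this organ. The erythroid list had 1 of 25 genes called (Slc4a1, the band 3 anion exchanger, 0.24) and a median of 0.14, and that call was lost without GenX replicate 4 (0.19, adjusted p = 0.14). Its mean level ran from 8.65 to 9.07 in controls and from 8.78 to 9.24 in the GenX group, with 3 and 2 members below background throughout. With the erythroid level of each array as a covariate, 2060 genes were called, 1311 higher and 749 lower. Globin genes were not analysed here. Of 11 haem synthesis genes and 34 of the cell cycle, 0 were called in the limma fit, with medians of 0.18 and 0.15. The smallest p-values were those of Ppox (0.42, adjusted p = 0.057) and Plk1 (0.42, adjusted p = 0.12). Markers of megakaryocytes, granulocytes, lymphoid cells, blood stem cells, endothelial cells, bile ducts and muscle had 0 calls in the limma fit in 12, 22, 15, 11, 15, 10 and 18 measured genes, and all 15 lymphoid markers were below background on every array. Csf1r, the growth factor receptor of macrophages, was called lower at 0.27 in its list of 19, and that call was lost without any 1 of 8 arrays. Of 16 stellate and mesenchymal markers, 1 was called higher and 2 lower, with a median of -0.20. Reln, a secreted matrix protein, fell by 0.51 ± 0.10 from a control mean of 8.69. Des (0.72) and Lrat (-0.48) lost their calls without any 1 of 6 and of 7 arrays. The mean level of the list ran from 7.57 to 7.88 in controls and from 7.45 to 7.69 in the GenX group, with 9 and 6 members below background throughout.

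Some marker genes of neighbouring organs did change. Amy2b, a pancreatic amylase, was 7.72, 8.45, 8.48, 7.33 and 7.61 in controls and 4.37, 4.37, 4.49, 4.21 and 4.41 after GenX. The controls straddled background and the treated livers were far below it, which allows a bound of at least 1.11-fold for a fitted difference of -3.55 ± 0.53. Of the other pancreas markers, Cela1 was called lower (-0.40) and 10 were not called. Of the 12, 10 were below background on all control arrays and all 12 on all GenX arrays, and the mean level of the list was 5.89 to 6.29 in controls and 5.52 to 5.70 in the GenX group. Tff3, a trefoil peptide of gut and other epithelia, fell by 1.99 ± 0.22, at least 2.01-fold, with 11 of 17 gut markers below background on all control arrays. Cubn, an endocytic receptor of kidney and yolk sac, was 4.55, 4.52, 4.52, 7.10 and 7.11 in controls and 7.24, 6.74, 7.30, 7.75 and 7.83 after GenX. The controls split into a low and a high set, the high set overlapping the treated livers, and 1 array of the 10 was above background. Whether tissue carried over at dissection differed between the groups was not tested.

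The next counts stand beside 14.9% called higher and 6.97% lower among all genes above background. Among 19 imprinted growth genes, 4 rose and 4 fell. Zim1 and Peg3, neighbours expressed from opposite parental copies, rose by 0.94 ± 0.13 and 0.61 ± 0.11. Phlda2 and Cdkn1c, growth-limiting genes of another imprinted cluster, fell by 0.88 ± 0.15 and 0.55. Of 22 genes of the growth hormone and insulin-like growth factor axis, 2 were called lower, Igfbp4 (-0.32) and Cux2 (-0.22, below background on all 10 arrays), and neither was called with only the 2 groups in the fit, nor Cux2 without GenX replicate 4. Among 18 iron genes, 1 was called higher and 3 lower: Ftl1, the ferritin light chain, rose by 0.44, and Trf, transferrin, and Slc39a14, an importer of iron not bound to transferrin, fell by 0.24 and 0.70, as did Smad7 by 0.22. The glucocorticoid and clock list had 3 of 25 called higher and 3 lower, with 17 below background on all 10 arrays. Hsd11b1, which regenerates active glucocorticoid, fell by 1.34 ± 0.11 with all 10 arrays below background, and 0 of 19 immediate early genes were called in the limma fit.

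The dose comparison within fetal liver set the 2 GenX groups against each other. The spread of each gene was estimated from all fetal groups, controls included. For Cyp4a14 the SD was 1.23 in controls, 0.13 at 2 mg/kg/day and 0.09 at 10 mg/kg/day, so its interval below includes the controls' spread. Between GenX at 10 and at 2 mg/kg/day, 0 of 30743 genes were called in the limma fit (0%), and 619 had an unadjusted p under 0.05. The 95% interval of the difference lay within 1 log2 unit on both sides for 98.9% of the genes called at 2 mg/kg/day. The median size of change among those genes was 0.37, less than the 1 unit allowed. Such intervals therefore cannot show that the doses changed most of these genes alike. For Cyp4a14 the 2 changes from control were 5.27 and 5.27, and the interval of their difference ran from -0.72 to 0.71. For Ehhadh they were 3.51 and 3.55 (interval -0.24 to 0.31), for Fabp1 1.94 and 1.91 (-0.36 to 0.28), and for Cyp2e1 -2.96 and -3.18 (-0.79 to 0.35). Among named genes, C1s1, a complement protease, had an interval that left out 0 (-1.0 to -0.08), as did C1ra (-0.47 to -0.09), its neighbour, and Npas2 (-0.37 to -0.09), a clock factor below background on all arrays of the control and GenX 2 groups. None of the 3 passed the adjustment. Both doses were set against the same 5 controls.

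At the 1 mg/kg/day dose of PFOA, a different dose of a longer-chain acid set against the same controls, Cyp4a14 differed from control by 5.14, Ehhadh by 3.30 and Fabp1 by 1.61. On the same arrays Cyp2e1 differed by -0.15, Pon1 by -0.69 and Cyp7a1 by -0.96. The values at 2 mg/kg/day GenX for these last 3 genes were -2.96, -2.84 and -2.05. At 5 mg/kg/day of PFOA the same 3 genes differed from control by -2.16 ± 0.25, -2.01 ± 0.24 and -2.27 ± 0.30 (SE), and Cyp4a14, Ehhadh and Fabp1 by 5.27, 3.52 and 1.87. That PFOA group includes replicate 6, whose title and source name disagree. No comparison was made, because the doses differ.

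The same dose changed fetal and maternal liver to different degrees. The change differed between fetal and maternal liver for 393 of 30743 genes (1.28%), 188 with the fetal change larger in the signed sense (0.612%) and 205 with it smaller (0.667%). The difference was tested as an interaction over all 50 arrays, which were treated as independent since the labels do not say which fetus belongs to which dam. Lepr rose by 3.12 in fetal liver and differed by 0.92 in maternal liver, where it was not called (3.37% of genes were, in the dams) and lay below background on all 10 arrays (7.46 to 7.65 in the dams). Cpt1b rose by 2.78 in the fetus and differed by 0.84 in the dams, with 1 of 10 arrays above background there, so these maternal changes have no bound. Abhd6 rose by 2.84 and 0.85, and Fabp1 by 1.94 and 0.68 (adjusted p of the difference 6.4e-06). Cyp2e1 and Pon1 fell by 2.96 and 2.84 in fetal liver, while they differed by 0.09 and 0.10 from control in the dams (adjusted p of the difference 4e-09 for both).

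Mean levels place these differences. Maternal controls averaged 12.24 for Cyp2e1 and 10.74 for Pon1, above the fetal control means of 8.92 and 9.01. For Fabp1, Ehhadh and Abhd6 maternal controls averaged 11.87, 10.47 and 9.02, against 10.40, 9.04 and 7.25 (below background) in fetal controls. After GenX these genes averaged 12.34, 12.56 and 10.09 in the fetus and 12.56, 12.72 and 9.87 in the dams. Their larger fetal changes thus ran from lower controls to similar treated levels. Lepr and Acot3 differed, with higher treated means in the fetus (8.71 and 9.77) than in the dams (6.30 and 9.07), as did Cpt1b. Ces1g, a carboxylesterase of liver lipid metabolism, rose by 2.71 in fetal liver and differed by -0.24 in the dams. Aldh1a7 rose by 2.54 against -0.08. In the other direction Abcc3, an export pump for bile acids and conjugates, differed by -0.03 in fetal liver, below background on all 10 arrays, and rose by 2.30 in the dams, at least 3.08-fold from below background, and Pctp, a phosphatidylcholine transfer protein, differed by 0.37 against 2.63. Ppara differed by -0.05 in the fetus and 0.67 in the dam (adjusted p of the difference 0.038). Cyp4a14, Acot1 and Serpina7 gave no call for a difference between the livers, with changes of 5.27, 3.21 and 2.78 in the fetus and 3.95, 2.96 and 2.54 in the dam, where Serpina7 came from below background, at least 1.09-fold. The count of 393 was 260 with only the groups compared in the fit and 14 with a 1.5-fold minimum.

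**Figure D5:**
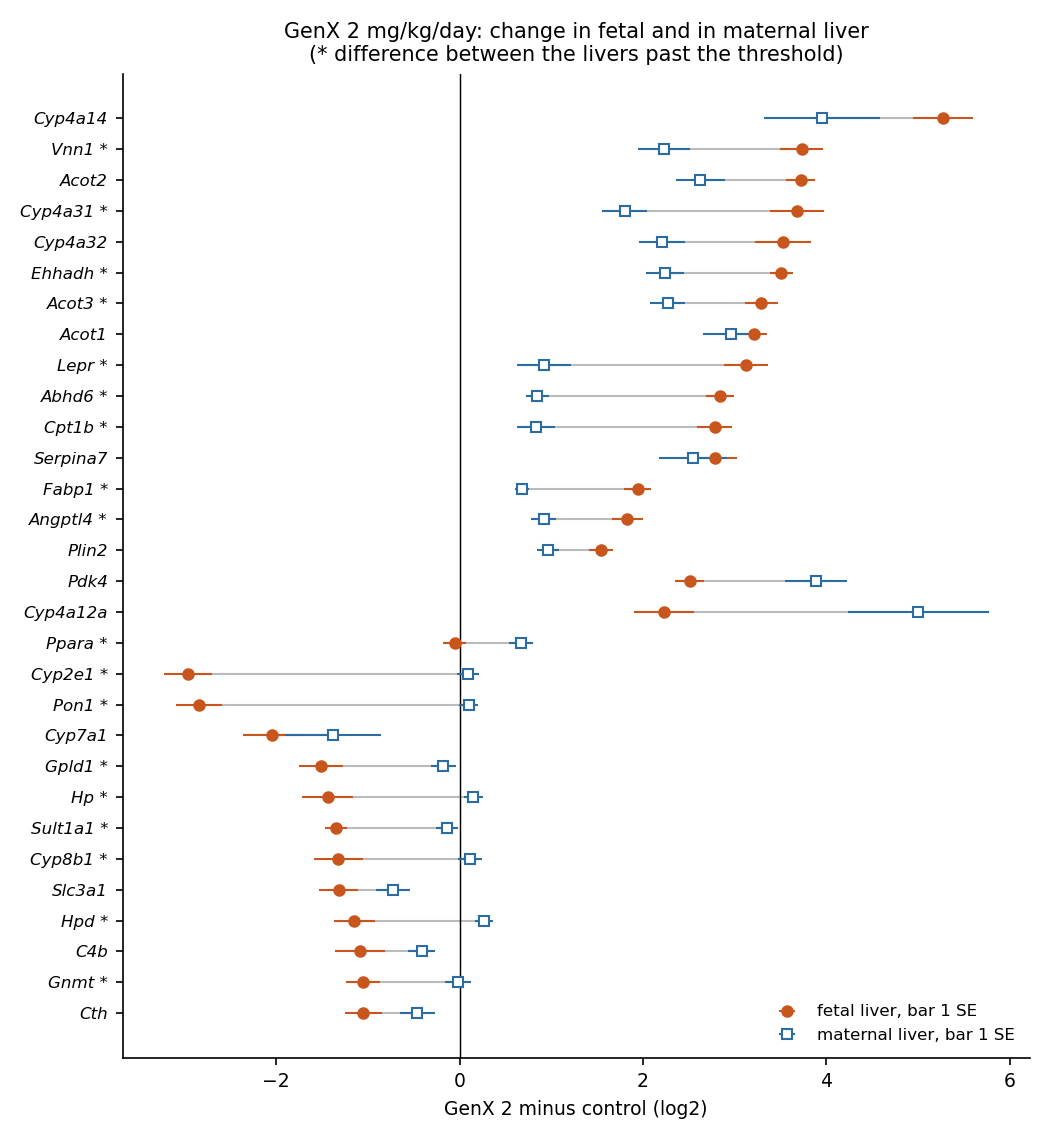
Change from control at GenX 2 mg/kg/day (log2, horizontal) in fetal liver (orange circles) and maternal liver (blue squares) for 30 named genes, bars 1 SE, with a star where the difference between the livers passed the threshold. Cyp2e1 and Pon1 lie near -3 in fetal liver and near 0 in maternal liver.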

How the data were processed

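The deposited table holds log2 signals of 50 Affymetrix whole-transcript arrays, normalized together by RMA, with mm10 as build, per the submitters' processing notes; versions are not given in the sources used here. Of 65956 transcript clusters, 30604 had 1 gene symbol in the platform annotation, 612 several names of 1 gene and 1534 several genes, which were left out. The brightest probe set stood for each of 30743 genes. The main limma 3.58.1 (R 4.3.3) fit used all 25 fetal arrays in 5 groups by title, with eBayes, no covariate, 2-sided tests and adjusted p under 0.05. The interaction used all 50 arrays. Named genes were the 12 largest rises and 12 largest falls among called genes that did not overlap between groups and were above background on all arrays of the brighter group, up to 4 genes of each of 41 lists, and 20 measured anchors. For comparisons between livers, the 5 largest differences each way were added, and predicted genes and small RNAs were left out. Members and lists were chosen with earlier results of these data known. Scripts were tested on simulated data. Alternatives were a variance trend, a filter on dim genes, renormalization, median centring, probe averaging, array weights, a 1.5-fold minimum, a fit of the groups compared, a replicate block, source names, arrays low in Xist, an erythroid covariate and each array left out. Array data have no read depth; 5 arrays a group limit the precision. Promoters and coordinates are from RefSeq (GRCm38.p6); genes without an entry are named only.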

Additional observations from a re-analysis of the deposited data

Results flagged for a closer look

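In 37 genes, both groups of 5 arrays were checked for 1 array far from the other 4, and 6 of 74 checks found one. The genes include those chosen for no overlap, and arrays recur among the flags. The checks are therefore not independent, and no rate by chance is set beside the count. GenX replicate 5 was high in Acot1 (11.21, against 10.71 to 10.83). GenX replicate 4 was low in 4 genes, Serpina7 (8.74, against 9.38 to 9.52), Sult1a1 (7.94, against 8.51 to 8.68), C4b (7.42, against 8.47 to 8.74) and Cth (7.98, against 9.04 to 9.34). Control replicate 3 was high in Cyp7a1 (8.78, against 7.92 to 8.05).

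The change at GenX 2 mg/kg/day differed between fetal and maternal liver in 18 of these genes, by the interaction test. The fetal change exceeded the maternal one by 2.20 for Lepr, 1.99 for Abhd6, 1.95 for Cpt1b, 1.88 for Cyp4a31, 1.50 for Vnn1, 1.27 for Ehhadh, 1.26 for Fabp1, 1.02 for Acot3 and 0.91 for Angptl4. In the dams Lepr was below background on all 10 arrays, Cpt1b on 9 and Acot3 on all controls, so these 3 differences rest on dim maternal signal. Fetal minus maternal was -3.06 for Cyp2e1, -2.94 for Pon1, -1.59 for Hp, -1.44 for Cyp8b1, -1.41 for Hpd, -1.33 for Gpld1, -1.20 for Sult1a1 and -1.04 for Gnmt. For Ppara it was -0.72, with no call in fetal liver and a rise in the dams.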

How the results depend on the processing

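The count of 2070 genes was 1159 with only the groups compared in the fit, 1260 with source names followed, 88 with a 1.5-fold minimum, and 1310 to 2016 with 1 array left out, the lowest without GenX replicate 4. The other alternatives gave 1602 to 2319, with the replicate block at 2053. Deviations of same-numbered fetal control and GenX arrays correlated with r of -0.21 to 0.48, the highest for replicate 5. No values for differently numbered arrays were set beside these, so they cannot decide whether the numbers pair the arrays. The difference between the doses gave 0 calls in every alternative run, with 0 to 1463 genes at an unadjusted p under 0.05. The difference between the livers, 393 genes, was 260 with only the groups compared, 14 with a 1.5-fold minimum, 369 with the replicate block and 290 to 400 with 1 array left out. Of the 24 genes with the largest changes, C4b lost its call without control replicate 5 or GenX replicate 4. Many calls are dim: 767 of 2070 genes were below background on every array of both groups.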

Other observations

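Gene families outside the lists were looked at after their values were seen, so they are given as values with no test of the family. All 69 copies of 5S ribosomal RNA on the array were called lower, with changes from -1.50 to -0.52 and a median of -0.82. Many of these copies carry the same sequence, so they are not independent. Their median signal was 11.77, 11.71, 11.20, 11.41 and 11.86 in controls and 10.74, 10.95, 10.08, 9.77 and 10.51 in the GenX group, with no overlap. Ribosomal protein genes had 2 of 38 called, both higher, with a median of 0.05.

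Cwc22, which links splicing to the exon junction complex, and 7 near copies named as predicted genes were all called higher, by 2.15 to 2.75. Cwc22 itself was 6.97, 7.43, 7.37, 7.16 and 6.72 in controls and 9.63, 9.08, 9.54, 9.0 and 9.15 after GenX, at least 2.61-fold. Several of the copies gave identical values, so the 8 are not separate measurements.

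The 4 amylase entries all fell, 2 of them from below background in the controls. Amy1, the salivary and liver form, was 7.67, 8.47, 8.50, 7.64 and 7.58 in controls and 6.49, 6.72, 6.39, 5.82 and 6.48 in the GenX group (-1.59 ± 0.20, adjusted p = 1e-05 by limma).

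Carboxylesterases split, with 3 of 19 called higher and 3 lower. Ces1g and Ces1e rose by 2.71 and 1.31, both from below background in all controls and the former at least 1.46-fold, and Ces1d rose by 1.78. Ces1c and Ces1b fell by 1.85 and 0.74, both below background in the 2 groups, and Ces2a fell by 0.49. The call of Ces2a was lost without GenX replicate 4 (-0.39, adjusted p = 0.083 by limma), without control replicate 3 (adjusted p = 0.054), with source names followed and without the arrays low in Xist. Of 8 Akr1c aldo-keto reductases, Akr1c18, which inactivates progesterone, was called higher, from below background in all controls, and Akr1c6, Akr1c14 and Akr1c20 were called lower. Akr1c6 and Akr1c20 were below background on all 10 arrays and Akr1c14 on all GenX arrays, so no fold is given. In the Cyp2 family 6 of 47 genes were called, all lower, led by Cyp2e1 and followed by Cyp2d26 at -1.01. Aox3, an aldehyde oxidase of liver, fell at least 1.42-fold, from a mean of 8.26 to below background on all GenX arrays.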
